A study of Mus musculus with 48 samples.

Results

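The genes described are 10 secreted signals of osteocyte-like cells and bone: the gp130 cytokines Il6, Lif and Il11, the CXC chemokines Cxcl1, Cxcl5 and Cxcl12, the CC chemokines Ccl2, Ccl7 and Ccl5, and the cytokine Tnf. They were taken by symbol from 4 tables in FPKM, a unit that divides fragments by transcript length and by the depth of the library, and each symbol was found once, which made 10 of 55335 gene rows. The study sequenced poly(A)-selected RNA to ask how mitochondrial damage and ageing act on osteocytes. Here 27 libraries were used, 3 for each of 9 groups; the other 21 of 48 samples, among them cells with 1 µM ADP and cells with shRNA, were not analysed here.

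The first 6 groups were MLO-Y4 cells, 1 murine line with features of osteocytes, labelled C57BL/6J and wild type. Oligomycin A blocks the ATP synthase of mitochondria. It was added at 50 µM for 1 h, and its vehicle DMSO was added at the same volume. Supernatants of those cultures, from oligomycin A or from vehicle, were then given to untreated MLO-Y4 cells for 2 h. The protocol names no step that removed the drug from the supernatant, so drug carried over and substances released by the cells cannot be told apart. A further pair of groups had 2 µM ADP for 2 h or no ADP. The treatment label of the vehicle samples names oligomycin A together with DMSO, whereas titles and protocol say vehicle, which is followed here.

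The bone groups came from wild-type C57BL/6J mice. Fragments of long and parietal bone from mice aged 1 month were kept for 48 h in medium taken from other bone fragments. They form a group titled transfer and a group titled control, and the donor of the medium is not labelled for either. Cortical bone of femur and tibia from untreated mice aged 18 months was a group with no counterpart. Its protocol says that it was harvested with nonosseous tissue and marrow. Whether the 3 replicates of a group were grown or dissected separately is not in the labels. The p-values therefore speak of the spread among these libraries, and that spread may be technical.

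All 10 are protein-coding, with positions from GENCODE M21 on GRCm38. Il6 (ENSMUSG00000025746) lies at 30013114 to 30019981 on the plus strand of chromosome 5, which also holds Cxcl1 (ENSMUSG00000029380, 90891241 to 90893115) and Cxcl5 (ENSMUSG00000029371, 90759360 to 90761624), both on the plus strand. Chromosome 11 holds Lif (ENSMUSG00000034394, 4257557 to 4272514), Ccl2 (ENSMUSG00000035385, 82035571 to 82037453) and Ccl7 (ENSMUSG00000035373, 82045712 to 82047525) on the plus strand and Ccl5 (ENSMUSG00000035042, 83525778 to 83530518) on the minus strand. Il11 (ENSMUSG00000004371) spans 4772373 to 4782859 on the minus strand of chromosome 7, Cxcl12 (ENSMUSG00000061353) spans 117168535 to 117181367 on the plus strand of chromosome 6, and Tnf (ENSMUSG00000024401) spans 35199381 to 35202007 on the minus strand of chromosome 17.

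As background, Il6, Lif and Il11 signal through receptor complexes that share the gp130 chain, encoded by Il6st, and act through Jak kinases and Stat3. Osteocytes lie within the bone matrix and send such signals to osteoclasts, osteoblasts and marrow cells. Cxcl1 and Cxcl5 attract neutrophils through Cxcr2, Ccl2 and Ccl7 attract monocytes through Ccr2, Ccl5 attracts T cells and other leukocytes, and Cxcl12 holds haematopoietic cells in the marrow through Cxcr4. Many of these genes are induced through NF-kB or AP-1, and many of their mRNAs carry AU-rich stretches in the 3′ UTR that bring about fast decay.

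Promoter sequences are shown for Il6, Cxcl1, Lif and Il11, whose levels differed in the comparisons of MLO-Y4 cells and whose windows hold an NF-kB or AP-1 motif. Each is the 250 bases before the annotated start, 5′ to 3′ on the gene's strand, from RefSeq on GRCm38.p6, with motif matches in capitals. The sites were chr5:30012864-30013113 on the plus strand for Il6, chr5:90890995-90891244 on the plus strand for Cxcl1, chr11:4257318-4257567 on the plus strand for Lif and chr7:4778142-4778391 on the minus strand for the second of the Il11 starts.
Il6: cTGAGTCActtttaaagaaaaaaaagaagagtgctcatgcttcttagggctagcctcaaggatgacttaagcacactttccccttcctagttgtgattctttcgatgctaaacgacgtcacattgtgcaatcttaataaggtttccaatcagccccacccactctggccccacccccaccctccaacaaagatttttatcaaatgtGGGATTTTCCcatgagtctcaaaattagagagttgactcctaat
Cxcl1: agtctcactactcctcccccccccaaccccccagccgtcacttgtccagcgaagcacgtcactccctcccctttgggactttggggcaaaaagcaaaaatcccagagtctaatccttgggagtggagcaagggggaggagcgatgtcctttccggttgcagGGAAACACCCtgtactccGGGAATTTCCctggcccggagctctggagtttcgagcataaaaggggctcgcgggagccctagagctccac
Lif: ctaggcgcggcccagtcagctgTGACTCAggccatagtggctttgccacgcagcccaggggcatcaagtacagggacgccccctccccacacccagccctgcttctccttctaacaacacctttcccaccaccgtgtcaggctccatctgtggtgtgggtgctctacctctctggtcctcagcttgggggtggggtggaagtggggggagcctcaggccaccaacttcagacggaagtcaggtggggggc
Il11: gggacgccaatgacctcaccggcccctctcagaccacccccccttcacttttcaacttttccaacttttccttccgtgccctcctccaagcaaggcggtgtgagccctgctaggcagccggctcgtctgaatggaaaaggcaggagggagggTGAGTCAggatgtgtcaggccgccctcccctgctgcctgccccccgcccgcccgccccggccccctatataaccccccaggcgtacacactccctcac
The motifs searched on both strands were NF-kB as GGG and TTTCC with any 2 bases between them, AP-1 as TGANTCA, the cAMP response element as TGACGTCA and the TATA box as TATAAA. Of 32851 mouse promoter windows of the same length, 1.41% held the NF-kB motif, 6.75% the AP-1 motif, 1.55% the cAMP response element and 12.4% the TATA box. The Il6 window held the NF-kB motif 44 to 35 bases before the start and the AP-1 motif 249 to 243 bases before it. The Cxcl1 window held the NF-kB motif at 71 to 62 bases and, on the other strand, at 89 to 80 bases. The AP-1 motif lay 228 to 222 bases before the Lif start and 98 to 92 bases before the second Il11 start. The Tnf window held a TATA box at 29 to 24 bases, and those of Cxcl12 and of the first Il11 start held none of these letters. Entries were found for 6 of the 10 genes, and the motifs were not examined for Cxcl5, Ccl2, Ccl7 and Ccl5.

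The 3′ UTRs differed in how many AUUUA pentamers, the core of AU-rich decay elements, they held. The stretches of 30 bases richest in this pentamer are shown for the genes with the most pentamers per kilobase and for Ccl5, which had none, as DNA letters with each pentamer in capitals (GENCODE M21, GRCm38).
Il6: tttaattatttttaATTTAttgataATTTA
Cxcl1: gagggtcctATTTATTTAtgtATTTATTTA
Tnf: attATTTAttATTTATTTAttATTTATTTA
Il11: ctttaaaaccagatcttATTTATTTATTTA
Ccl5: gatagagggtttcttgattctgaccctgta
Per kilobase of 3′ UTR, Il6 had 14.1 pentamers, Cxcl1 11.8, Tnf 10.5 and Il11 8.38, against a median of 1.36 over 9877 genes tested in MLO-Y4 cells. Ccl7 had 4.60, Cxcl5 4.50, Ccl2 3.64 and Lif 2.20, while Cxcl12 with 1.08 and Ccl5 with 0 lay below that median. The longer element TTATTTATT, held by 7.81% of those genes, occurred 5 times in Il11, 5 times in Tnf, 2 times in Cxcl1 and 2 times in Lif. It was absent from the 3′ UTR of Il6, which had single pentamers only.

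**Figure D1:**
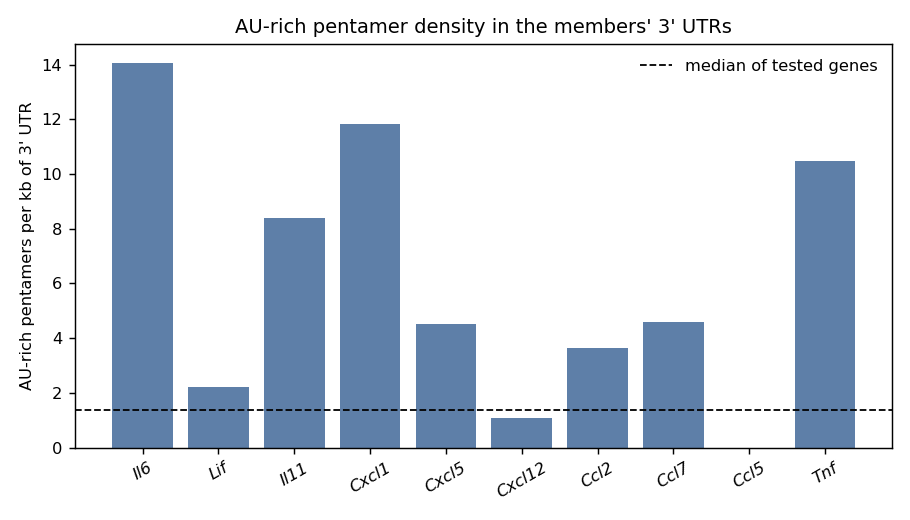
AU-rich pentamers per kilobase of 3′ UTR (y axis) for the 10 genes (x axis), with the median of 9877 genes tested in MLO-Y4 cells as a dashed line. Il6, Cxcl1, Tnf and Il11 stand at 8.38 or above, and Cxcl12 and Ccl5 lie below the line.

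Rough depth, read from the steps of low FPKM values, was 15.0 M to 20.4 M fragments in the oligomycin A table, 21.3 M to 25.4 M in the ADP table, 1.62 M to 6.45 M in young bone and 29.8 M to 33.6 M in old bone. Genes resembling ribosomal or 7S RNA took 27.2% of the FPKM in vehicle replicate 2, against 0.211% to 0.414% in the other 5 libraries of oligomycin A or vehicle cells. In young bone a few repeat-like genes took 66.1%, 5.80% and 89.9% of the FPKM of transfer replicates 1 to 3, against 86.1%, 88.6% and 81.7% in the control. Of the osteocyte markers, Sost, an inhibitor of bone formation, was listed at 0 in all 18 MLO-Y4 libraries, and 5 of 10 markers averaged at least 1 FPKM in each MLO-Y4 group. The MLO-Y4 libraries had summed T and NK cell markers of at most 0.0612 FPKM. Their 11 macrophage markers summed to 19.6 to 40.3 FPKM, most of it Cd14, with Adgre1, C1qa, C1qb, C1qc and Ms4a7 at 0. Old bone had summed neutrophil markers of 101600 to 106500 FPKM and erythroid markers of 356600 to 379100 FPKM. In such bulk samples fewer cells of a type and less RNA per cell cannot be told apart.

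Levels of the 10 genes, which FPKM gives per transcript length, spanned several orders of magnitude in MLO-Y4 cells, and the order was much the same in every group. Cxcl5 was the highest of the 10 in all 18 libraries, with 1204 to 2021 FPKM, and made up 66.8% to 76.4% of the sum of the 10 in the oligomycin A table. Cxcl1 came next in every library, at 185 to 328 FPKM. Lif ranged over 77.1 to 143 FPKM, Ccl2 over 62.0 to 154 FPKM, Ccl7 over 33.7 to 105 FPKM and Il6 over 24.4 to 53.7 FPKM. Il11 covered 4.40 to 10.5 FPKM in the oligomycin A table and 24.5 to 28.7 FPKM in the ADP table, which was not tested across tables. In the oligomycin A table Ccl2 was above Lif in 11 of 12 libraries, and their group means differed by less than the sum of their SDs in oligomycin A and in vehicle supernatant cells. In the ADP table Lif was above Ccl2, and Il6 above Ccl7, in all 6 libraries.

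Ccl5 was low in the line, and Tnf and Cxcl12 were near or at 0. Ccl5 stood at 6.04 to 20.2 FPKM in MLO-Y4 libraries, in which markers of T and NK cells were near 0. Tnf had at most 0.365 FPKM, which is about 13 fragments at the rough depth. Cxcl12 was listed at 0 in 16 of 18 libraries and had at most 0.00745 FPKM in the others, while Ackr3, a scavenger receptor for Cxcl12, averaged 50.7 FPKM over the same libraries.

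**Figure D2:**
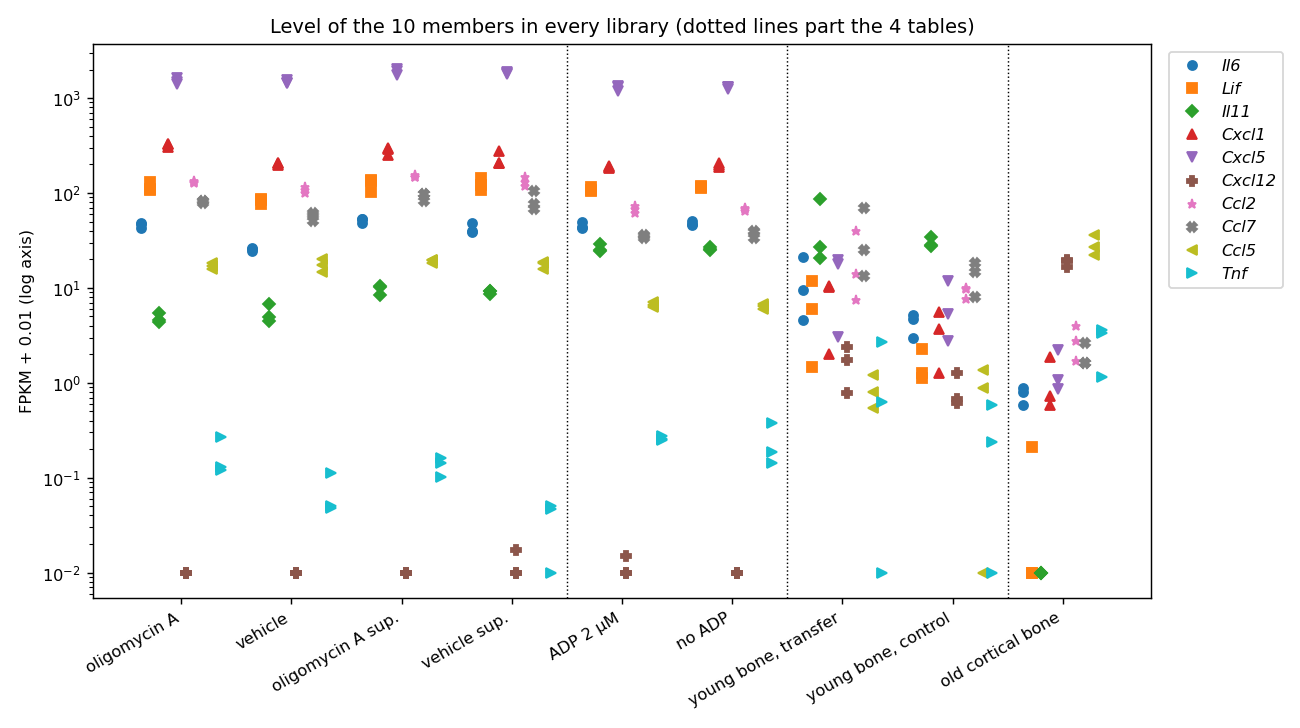
FPKM plus 0.01 on a log axis (y) for each of the 10 genes in every library of the 9 groups (x), with dotted lines between the 4 tables. Cxcl5 is at the top in every MLO-Y4 library, Il11 in every young bone library and Ccl5 in every old bone library, and a point at 0.01 is a value listed at 0.

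In bone the order was another one. Il11 was the highest of the 10 in all 6 young bone libraries, with 27.3, 86.3 and 20.6 FPKM after transfer and 34.1, 28.3 and 27.4 FPKM in the control. Old cortical bone, by contrast, listed Il11 at 0 in all 3 libraries and had Ccl5 first, at 26.9, 22.3 and 35.8 FPKM, and Cxcl12 next, at 16.5, 19.6 and 19.2 FPKM. Tnf had 3.34, 1.14 and 3.63 FPKM there, Ccl2 2.76, 3.94 and 1.69 FPKM, and Il6 0.576, 0.783 and 0.878 FPKM. Lif was listed at 0 in 2 of the 3 libraries and at 0.203 FPKM in the other. Beside Ccl5 and Cxcl12, the summed T and NK cell markers of old bone were 284 to 414 FPKM and the summed macrophage markers 4550 to 5387 FPKM. Summed reticular and stromal markers were 40.1 to 51.0 FPKM there, and endothelial markers 27.8 to 37.3 FPKM. In MLO-Y4 libraries, where Cxcl12 was near or at 0, reticular and stromal markers summed to 130 to 216 FPKM. The part of any of these cells in the old bone levels was not tested. Old and young bone differ in age, culture, anatomical site and table, so no test was made between them. The 10 genes together summed to 53.5 to 64.5 FPKM in old bone, 54.3 to 264 FPKM after transfer and 56.9 to 78.6 FPKM in young controls. Repeat-like genes took 81.7% to 88.6% of the FPKM in young controls and 0.0177% to 0.14% in old bone. The sums of old and young bone are therefore not on the same scale.

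Direct treatment with oligomycin A raised Il6, the gp130 cytokine best known from acute inflammation. Il6 had 42.5, 48.0 and 47.1 FPKM in oligomycin A cells, against 25.8, 26.3 and 24.4 FPKM in vehicle cells. All treated libraries lay above all vehicle libraries. The log2 fold change, on the scale of FPKM + 1 used throughout, was 0.82 ± 0.08 (SE), with an adjusted p of 0.000167 by limma with Benjamini-Hochberg adjustment over 11902 genes. Cxcl1, a neutrophil attractant, also rose, with 304, 328 and 325 FPKM in oligomycin A cells and 206, 199 and 207 FPKM in vehicle cells. Its groups were likewise apart, and its log2 fold change was 0.64 ± 0.11 (SE), with a limma adjusted p of 0.00673.

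These were the 2 of 8 tested genes that passed, or 25.0%, where 3.71% of all tested genes were higher and 1.63% lower. Cxcl12 and Tnf fell below the filter of a mean of 1 FPKM. The median log2 fold change of the 8 was 0.38, against -0.00 over all genes tested. Il6 and Cxcl1 were still called when any 1 of the 6 libraries was left out. Over all genes, 442 were higher and 194 lower, against 256 and 19 when every library was rescaled to the same sum, a scaling that moved the median of all genes to 0.12.

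Lif, Ccl7 and Ccl2 missed the threshold although their groups did not overlap. Lif, a cytokine that acts on bone cells and stem cells, had 109.8, 132 and 108 FPKM in oligomycin A cells and 87.2, 77.1 and 83.6 FPKM in vehicle cells, a log2 difference of 0.49 ± 0.13 (SE) with a limma adjusted p of 0.0529. Ccl7 had 82.6, 82.2 and 79.1 FPKM in oligomycin A cells and 61.8, 50.6 and 58.7 FPKM in vehicle cells, at 0.51 ± 0.14 (SE) and an adjusted p of 0.0547. Ccl2 had 134, 129 and 131 FPKM in oligomycin A cells and 116, 101 and 108 FPKM in vehicle cells, at 0.28 ± 0.08 (SE) and an adjusted p of 0.062. With median-of-ratios scaling all 3 passed, which made 5 called genes. Groups lay apart, with oligomycin A higher, for 5 of the 8 tested genes, where 16.8% of all tested genes did so. Those of Tnf, which was below the filter and outside that share, also lay apart.

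Il11, Cxcl5 and Ccl5 did not follow. Il11, a cytokine that promotes osteoblast formation, had 4.59, 5.45 and 4.40 FPKM in oligomycin A cells and 4.98, 4.52 and 6.72 FPKM in vehicle cells. Cxcl5 had 1397, 1630.0 and 1482 FPKM in oligomycin A cells and 1428, 1456 and 1553 FPKM in vehicle cells. Ccl5 had 18.4, 15.8 and 16.9 FPKM in oligomycin A cells and 20.2, 17.3 and 14.7 FPKM in vehicle cells. In each case the groups overlapped, with log2 differences of -0.13 ± 0.12, 0.02 ± 0.07 and -0.02 ± 0.10 (SE) in that order. The sign of each changed when 1 of the libraries was left out, and that of Ccl5 also when every library was rescaled to the same sum. Within a library, Cxcl1 over Cxcl5 was 0.213 ± 0.0102 in oligomycin A cells and 0.138 ± 0.00555 in vehicle cells (SD, n = 3 each), a ratio that does not depend on the scaling of the library.

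**Figure D3:**
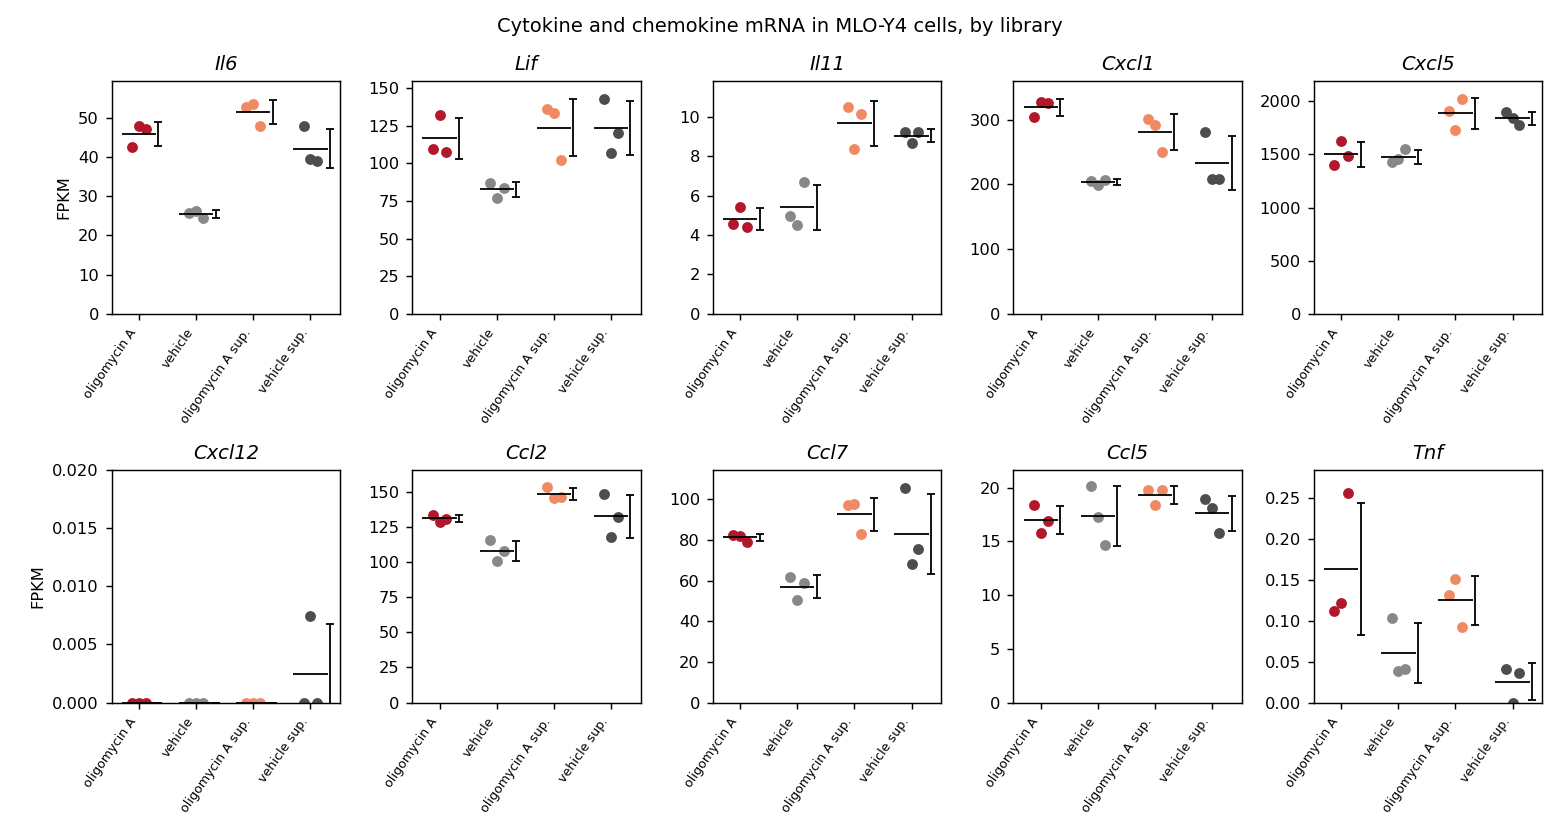
FPKM (y axis, from 0) of each gene in the 3 libraries of oligomycin A, vehicle, oligomycin A supernatant and vehicle supernatant MLO-Y4 cells (x axis), with the group mean as a line and the SD as a bar. Il6 and Cxcl1 of oligomycin A cells lie above vehicle in every library, and Il11 and Cxcl5 lie higher in the supernatant groups than in the cells that were treated directly.

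Tnf, an upstream inducer of many of the other genes, was too low for the fit. It had 0.112, 0.121 and 0.256 FPKM in oligomycin A cells and 0.103, 0.0383 and 0.0406 FPKM in vehicle cells. The groups did not overlap in FPKM. At the rough depth the values stand for 3, 3 and 9 fragments with oligomycin A and 3, 1 and 1 with vehicle. A two-sided exact permutation test gave p = 0.1, the smallest that 3 against 3 libraries can give.

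The 2 groups of supernatant recipients were compared for an effect of medium from oligomycin A cells. Drug carried over in that medium cannot be told apart from substances the cells released. None of the 8 tested genes passed in oligomycin A supernatant cells against vehicle supernatant cells by limma with Benjamini-Hochberg adjustment, where 0.277% of all tested genes were higher and 0.386% changed in either direction. At an unadjusted p below 0.05 there were 2 by limma, Il6 and Cxcl1, where 8.08% of all tested genes were below it. Il6 had 52.7, 53.7 and 47.9 FPKM with oligomycin A supernatant and 47.8, 39.6 and 39.1 FPKM with vehicle supernatant. The libraries were apart by a small margin, with a log2 difference of 0.28 ± 0.08 (SE) and a limma adjusted p of 0.272. Cxcl1 had 301, 291 and 250.1 FPKM with oligomycin A supernatant and 280.5, 208 and 209 FPKM with vehicle supernatant, which overlapped, at 0.28 ± 0.11 (SE) and an adjusted p of 0.491.

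The other 6 differences were all positive and small, with 0.17 for Ccl2, 0.18 for Ccl7, 0.13 for Ccl5, 0.08 for Il11, 0.04 for Cxcl5 and 0.00 for Lif on the log2 scale. The median of the 8 was 0.15, against -0.00 over all tested genes. Groups lay apart with oligomycin A supernatant higher for 1 of the 8 tested genes, Il6, where 6.65% of all tested genes did so. Those of Tnf, outside that share, also lay apart, on at most about 4 fragments in a library. Tnf had 0.131, 0.151 and 0.0925 FPKM with oligomycin A supernatant and 0.0407, 0 and 0.0363 FPKM with vehicle supernatant (two-sided exact permutation p = 0.1, the smallest possible).

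The response of recipients minus that of treated cells was also tested. It passed for 0 of the 8 genes by limma, where 0.445% of all tested genes passed in either direction, and for 3 at an unadjusted p below 0.05, where 10.7% of all tested genes were below it. For Il6 this difference was -0.54 ± 0.12 (SE) on the log2 scale, with a limma adjusted p of 0.092. It was -0.48 ± 0.18 for Lif, -0.36 ± 0.15 for Cxcl1 and -0.33 ± 0.19 for Ccl7 (SE), with adjusted p-values of 0.361, 0.44 and 0.572 by limma. The Il6 response was thus smaller in recipients by value, but not at the threshold.

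Vehicle supernatant cells and vehicle cells received no drug. They differ in the medium, which was a transferred supernatant in the first case, and in time, 2 h and 1 h. This comparison shares its vehicle libraries with the comparison of oligomycin A cells and its vehicle supernatant libraries with that of recipients. Of 8 tested genes 6 were higher in vehicle supernatant cells and 0 lower, where 9.49% of all tested genes were higher and 5.18% lower (1129 and 617 genes, or 1094 and 1115 with median-of-ratios scaling). All 3 gp130 cytokines rose. Il6 had 47.8, 39.6 and 39.1 FPKM in vehicle supernatant cells, against 25.8, 26.3 and 24.4 FPKM in vehicle cells. No library overlapped, at a log2 fold change of 0.70 ± 0.08 (SE) and a limma adjusted p of 0.000455.

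Il11 had 9.23, 8.67 and 9.25 FPKM in vehicle supernatant cells and 4.98, 4.52 and 6.72 FPKM in vehicle cells, at 0.66 ± 0.12 (SE) and a limma adjusted p of 0.00565. The value in direct oligomycin A cells, 4.81 ± 0.561 FPKM, and that in oligomycin A supernatant cells, 9.69 ± 1.14 FPKM (SD, n = 3 each), lay beside those of their own vehicle group. Lif had 143, 107 and 120.3 FPKM in vehicle supernatant cells and 87.2, 77.1 and 83.6 FPKM in vehicle cells, at 0.56 ± 0.13 (SE) and an adjusted p of 0.0154 by limma.

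Among the chemokines Ccl7, Cxcl5 and Ccl2 rose. Ccl7 had 105, 68.2 and 75.8 FPKM in vehicle supernatant cells and 61.8, 50.6 and 58.7 FPKM in vehicle cells, at 0.52 ± 0.14 (SE) and a limma adjusted p of 0.0283. Cxcl5 had 1899, 1843 and 1777 FPKM in vehicle supernatant cells and 1428, 1456 and 1553 FPKM in vehicle cells, at 0.32 ± 0.07 (SE) and an adjusted p of 0.014. Ccl2 had 149, 118 and 132 FPKM in vehicle supernatant cells and 116, 101 and 108 FPKM in vehicle cells, at 0.29 ± 0.08 (SE) and an adjusted p of 0.0291. Cxcl1 did not pass, with 0.17 ± 0.11 (SE) and an adjusted p of 0.308, and Ccl5 stood at 0.03 ± 0.10 (SE) and an adjusted p of 0.899. Groups lay apart for 7 of 8 genes, where 21.6% of all tested genes were higher without overlap, and the median of the 8 was 0.42, against 0.03 over all genes tested.

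Vehicle supernatant replicate 1 was the highest of its group for 7 of the 8 genes. Without it 2 genes were called, Il6 and Il11, with adjusted p-values of 0.0591 for Lif, 0.0601 for Ccl7, 0.0524 for Cxcl5 and 0.0943 for Ccl2 by limma. Without vehicle replicate 2, the library rich in ribosomal-like RNA, 3 were called, Il6, Il11 and Cxcl5. Ccl2 was also lost without vehicle supernatant replicate 3, at 0.0735, and without vehicle replicate 3, at 0.0687, and Ccl7 without vehicle replicate 3, at 0.0576. Summed macrophage markers were 27.6 to 33.8 FPKM in vehicle supernatant cells and 19.6 to 20.5 FPKM in vehicle cells. Cd14 made up most of the sum, with 30.02 ± 3.24 and 17.4 ± 0.381 FPKM in those groups (SD, n = 3 each), while 5 of the 11 macrophage markers were at 0 in both.

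**Figure D4:**
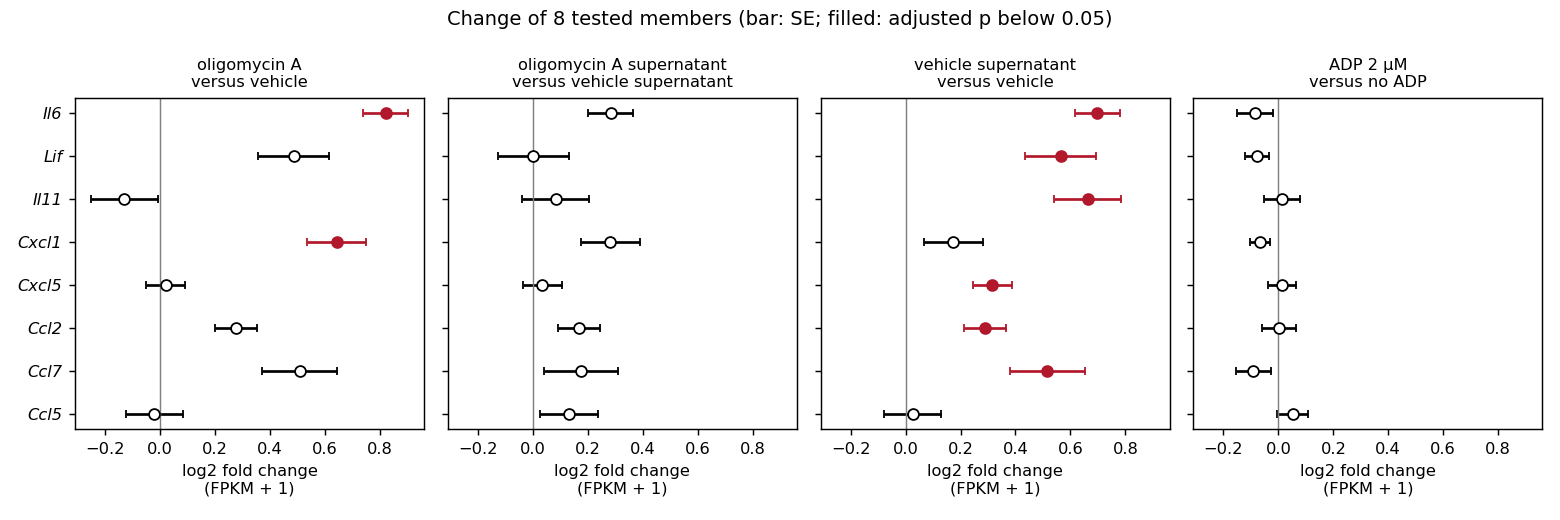
Log2 fold change on the FPKM + 1 scale (x axis) with its SE for the 8 tested genes (y axis) in 4 comparisons of MLO-Y4 cells, where filled points have a limma adjusted p below 0.05. Il6 and Cxcl1 are filled for oligomycin A, 6 genes for the vehicle pair, and none for the recipients or for ADP.

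ADP, a nucleotide that acts on P2Y receptors, left the 10 genes with no detected difference. None of the 8 tested genes passed by limma, where 0.0603% of 11604 tested genes did, and 0 had an unadjusted p below 0.05, against 5.84% of all tested genes. Il6 had 43.1, 49.9 and 43.7 FPKM with ADP and 47.7, 51.2 and 46.1 FPKM without. Il11 had 25.0, 28.7 and 24.5 FPKM with ADP and 24.9, 25.7 and 26.7 FPKM without. Log2 differences ran over -0.09 for Ccl7 up to 0.05 for Ccl5, with SEs of 0.04 to 0.07, and the lowest adjusted p was 0.854. Groups lay apart for 0 of the 8, where 5.33% of all tested genes were higher and 5.27% lower without overlap. Tnf had 0.237, 0.262 and 0.247 FPKM with ADP and 0.365, 0.134 and 0.177 FPKM without (two-sided exact permutation p = 0.9).

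In young bone fragments none of the 8 tested genes passed for transfer against control by limma, where 0.0243% of 16438 tested genes did, and 0 had an unadjusted p below 0.05, against 2.24% of all tested genes. Here Ccl5 and Tnf were below the filter. Il6 had 9.46, 21.3 and 4.53 FPKM after transfer and 4.71, 2.95 and 5.14 FPKM in the control. Lif had 5.93, 11.7 and 1.46 FPKM after transfer and 1.27, 2.26 and 1.13 FPKM in the control. Ccl7 had 24.8, 69.8 and 13.4 FPKM after transfer and 18.5, 8.05 and 14.7 FPKM in the control. Groups lay apart for 0 of the 8, where 3.49% of all tested genes were higher without overlap. Of the genes that averaged at least 1 FPKM after transfer, replicate 3 was the lowest for 9 of 9 and replicate 2 the highest for 7 of 9. The log2 differences were 0.29 for Il11 up to 1.26 for Lif, with SEs of 0.63 to 0.89, and the median of all tested genes was itself 0.45.

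The same libraries ordered the repeat-like share, which was 89.9% in transfer replicate 3 and 5.80% in transfer replicate 2. When FPKM was expressed in parts per M of the library's sum without repeat-like, ribosomal-like and 7S genes, a scale chosen after the data were seen, Il6 was 40.1, 50.1 and 44.7 after transfer and 34.6, 26.3 and 30.4 in the control. On that scale the Il6 groups lay apart, as the 1 of 8 tested genes that did, where 3.47% of 16419 genes were higher without overlap. Its log2 difference was 0.50, with a limma adjusted p of 1.0. Lif was 25.2, 27.5 and 14.4 after transfer and 9.35, 20.2 and 6.65 in the control, which overlapped. Il11 was 116, 203 and 203.0 after transfer and 251, 252 and 162 in the control. Of 10 summed marker lists, in FPKM as deposited, 2 were higher after transfer without overlap. These sums were not rescaled, so the repeat-like share enters them. Whether the 2 lists also lie apart on the rescaled scale was not tested. Erythroid markers summed to 10510 to 20880 FPKM after transfer and 3838 to 8063 FPKM in the control, and B-lineage markers to 50.9 to 184 FPKM after transfer and 19.4 to 36.2 FPKM in the control. The other 8 lists overlapped, among them macrophage markers with 53.9 to 641 FPKM after transfer and 122 to 161 FPKM in the control. The part of other cells in the values of the 10 genes was not tested.

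**Figure D5:**
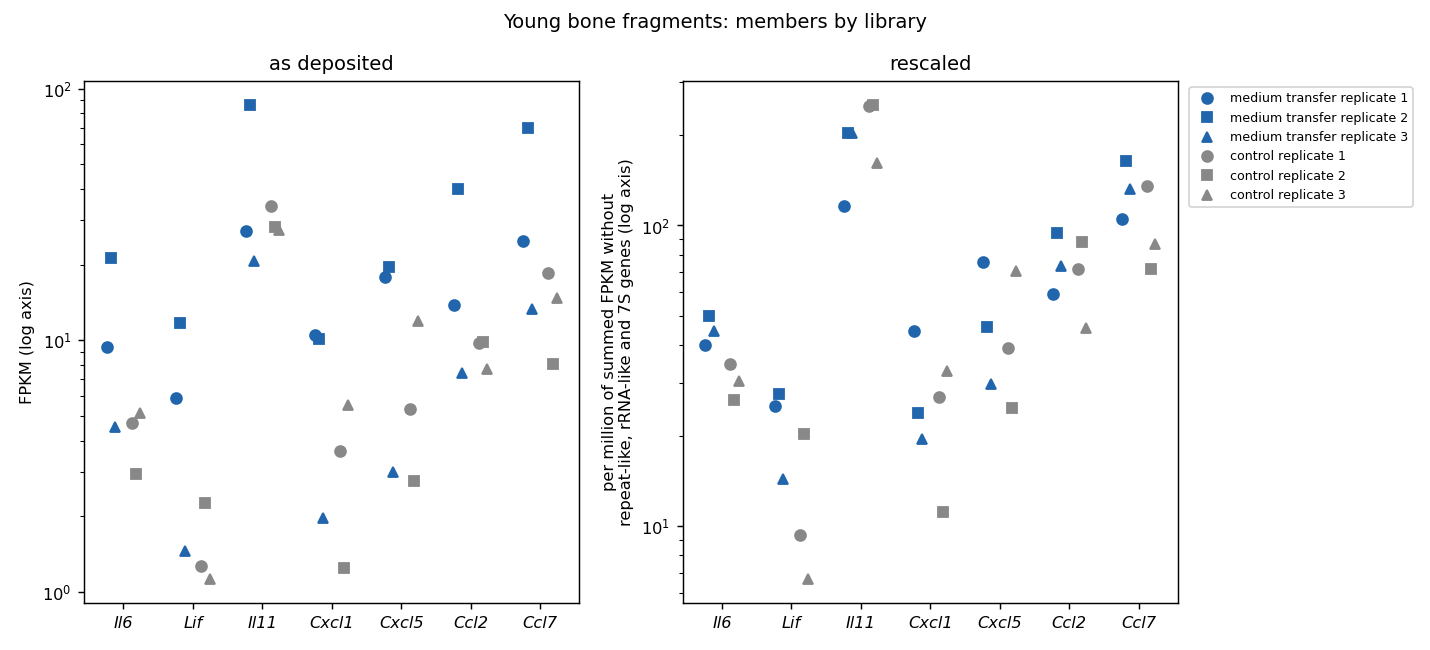
Levels of 7 genes (x axis) in the 3 transfer and 3 control libraries of young bone, as deposited FPKM (left) and in parts per M of summed FPKM without repeat-like, ribosomal-like and 7S genes (right), both on log axes. Transfer replicate 2 is highest for most genes at left, and Il6 is the gene whose transfer libraries all lie above control at right. The scale at right was chosen after the data were seen.

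Around the 10 genes, the gp130 receptors and signalling genes comprised 16 names, of which 14 were tested. With oligomycin A 2 were higher and 0 lower, where 3.71% and 1.63% of all tested genes were, namely the receptor chain Osmr at a log2 fold change of 0.40, with 31.6 ± 1.02 FPKM in oligomycin A cells and 23.8 ± 0.54 FPKM in vehicle cells, and the feedback inhibitor Socs3 at 0.58, with 114 ± 11.9 and 76.0 ± 7.70 FPKM in those groups (SD, n = 3 each). The median log2 fold change of the 14 was 0.04, against -0.00 over all genes tested. In recipients 0 of 14 passed by limma, with 1 at an unadjusted p below 0.05, where 8.08% of all tested genes were below it. In some alternatives 1 was called lower in recipients, namely with the filter at 5 FPKM, median-of-ratios scaling and quantile normalization. The same held when rescaled without repeat-like, ribosomal-like and 7S genes, and without oligomycin A supernatant replicate 1. The difference of responses passed for 2 of 14, where 0.445% of all tested genes passed in either direction. It was -1.10 for Socs3 (limma adjusted p 0.00363) and -0.42 for Osmr (0.0197). That of Socs3 passed in 22 of 22 alternative settings and that of Osmr in 12 of 22. In the vehicle pair, where 9.49% of all tested genes were higher and 5.18% lower, Socs3 rose by 0.89 in vehicle supernatant cells and Jak1 by 0.33, and Pias3, an inhibitor of Stat3, fell by 0.28. Of these Socs3 kept its call in 17 of 17 alternatives, Pias3 in 12 and Jak1 in 6. Il6st, the shared chain, averaged 63.8 FPKM and Ptpn11, a phosphatase of this pathway, 50.6 FPKM over the 18 MLO-Y4 libraries.

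Other interleukin-type ligands gave 7 tested genes of 18. Il1a, an alarmin, was the 1 that rose with oligomycin A, at 0.54, in 13 of 17 alternatives, and it rose by 0.83 in the vehicle pair. Of all tested genes 3.71% were higher and 1.63% lower with oligomycin A, and 9.49% higher and 5.18% lower in the vehicle pair. There Il33, an alarmin with 94.8 ± 1.83 FPKM in vehicle supernatant cells and 66.4 ± 3.44 FPKM in vehicle cells (SD, n = 3 each), rose by 0.51. Cntf, a neurotrophic gp130 ligand, fell by 1.27 on the log2 scale, with 0.334 ± 0.31 FPKM in vehicle supernatant cells and 2.16 ± 0.311 FPKM in vehicle cells (SD, n = 3 each). Clcf1, a gp130 ligand, averaged 16.1 FPKM over the 18 libraries. Of other CXC and CX3C chemokines 5 of 13 were tested. Cxcl10, a T cell attractant, was higher with oligomycin A at 0.66 (limma adjusted p 0.0473), a call kept in 8 of 17 alternatives and lost when any 1 of the 6 libraries was left out. Cxcl3, which like Cxcl1 acts on Cxcr2 and averaged 119 FPKM over the 18 libraries, rose by 0.34 in vehicle supernatant cells, and Cxcl2 by 0.63, in 6 of 16 alternatives. Cx3cl1 averaged 7.12 FPKM over the 18 libraries.

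Of other CC chemokines 2 of 15 were tested, Ccl9 at 2.74 FPKM and Ccl25 at 1.96 FPKM on average, and Ccl9 was higher by 0.25 in vehicle supernatant cells, in 4 of 16 alternatives. Ccl3 averaged 0.126 FPKM. Among 18 chemokine receptors 1 was tested, Ackr3, with 56.0 ± 0.51 FPKM in oligomycin A cells, 54.1 ± 0.829 FPKM in vehicle supernatant cells and 45.1 ± 0.831 FPKM in vehicle cells (SD, n = 3 each). It rose by 0.31 with oligomycin A, a call lost without oligomycin A replicate 1 or replicate 3, and by 0.26 in the vehicle pair. Of all tested genes 3.71% were higher with oligomycin A and 9.49% in the vehicle pair. Ccr1 averaged 0.621 FPKM and Ackr2 0.233 FPKM. In recipients 0 genes of these lists passed by limma; at an unadjusted p below 0.05 there were 2 interleukin-type ligands, 0 CXC and CX3C chemokines, 0 CC chemokines and 1 receptor, where 8.08% of all tested genes were below it.

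TNF receptors and adaptors gave 14 tested genes of 15, and 4 rose with oligomycin A while 0 fell, where 3.71% of all tested genes were higher and 1.63% lower, with a median of 0.09, against -0.00 over all genes tested. Tnfaip3, a brake on NF-kB, had 3.14 ± 0.166 FPKM in oligomycin A cells and 1.08 ± 0.351 FPKM in vehicle cells (SD, n = 3 each), at 1.00. Traf2 rose by 0.42, Birc2 by 0.51 and Ripk1 by 0.22, the last in 7 of 17 alternatives. In the vehicle pair 1 rose, where 9.49% of all tested genes did, Tnfrsf1b at 0.33, a call lost without vehicle supernatant replicate 1 or 3 or vehicle replicate 2. Tnfrsf1a averaged 58.7 FPKM, Tnfrsf1b 32.2 FPKM and Tab2 24.6 FPKM over the 18 libraries, in which Tnf itself was near 0. In recipients 0 of 14 passed by limma, with 3 at an unadjusted p below 0.05, where 8.08% of all tested genes were below it.

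All 12 cytokine mRNA decay factors were tested, and 3 rose with oligomycin A while 0 fell, where 3.71% of all tested genes were higher and 1.63% lower, with a median of 0.12, against -0.00 over all genes tested. Zfp36, whose protein binds AU-rich elements and speeds the decay of Tnf and other mRNAs, had 129.6 ± 3.82 FPKM in oligomycin A cells and 17.2 ± 0.34 FPKM in vehicle cells (SD, n = 3 each), and its log2 fold change was 2.84. Its relative Zfp36l1 rose by 1.02 and Elavl1, which stabilises AU-rich mRNAs, by 0.19, in 8 of 17 alternatives. In recipients Zfp36l1 was the 1 of 12 that passed, where 0.277% of all tested genes were higher. It had 82.1 ± 9.89 FPKM in oligomycin A supernatant cells and 52.2 ± 1.35 FPKM in vehicle supernatant cells (SD, n = 3 each), and passed in 10 of 17 alternatives. At an unadjusted p below 0.05 by limma there were 5 of the 12, where 8.08% of all tested genes were below it. The difference of responses passed for 1 of the 12, Zfp36, at -2.57 (limma adjusted p 3.39e-07), where 0.445% of all tested genes passed in either direction. In vehicle supernatant cells against vehicle cells 3 decay factors rose and 2 fell, where 9.49% of all tested genes were higher and 5.18% lower. Zfp36 fell by 0.68 and Arid5a, which stabilises Il6 mRNA, fell by 0.71, while Zfp36l2 rose by 0.63, Zc3h12a, an RNase that cuts Il6 mRNA, by 0.68 and Hnrnpd, which binds AU-rich elements, by 0.32. Khsrp averaged 52.5 FPKM over the 18 libraries. In the vehicle pair the median log2 fold change was -0.02 for the gp130 list, 0.12 for the interleukin-type ligands, 0.34 for CXC and CX3C chemokines, 0.04 for TNF receptors and adaptors and 0.14 for decay factors, against 0.03 over all genes tested. With ADP 0 of 54 tested genes of the 7 lists passed by limma, with 5 at an unadjusted p below 0.05, where 5.84% of all tested genes were below it. In young bone 0 of 65 passed by limma, with 1 at an unadjusted p below 0.05, where 2.24% of all tested genes were below it.

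Genes most like each called member were found by Pearson's r of log2(FPKM + 1) over the 12 libraries of the oligomycin A table, which share 4 groups, so that r reflects group differences. For Il6 these were Tbx3 at 0.950, Trib3 at 0.950 and Snx33 at 0.944. For Cxcl1 they were Ereg at 0.974, Tnfaip6 at 0.969 and Pnrc2 at 0.926, and for Lif Hif1a at 0.958, Kpna3 at 0.958 and Herpud1 at 0.937. Il11 was most like Zfp322a at 0.977, Cct5 at 0.967 and Letm1 at 0.966, and Cxcl5 most like Hccs at 0.961, S100a8 at 0.958 and Tram1 at 0.949. Ccl2 had Nars at 0.969, Mthfd2 at 0.964 and Ccl7 at 0.963, and Ccl7 had Mthfd2 at 0.973, Nars at 0.969 and Cxcl2 at 0.968. Ccl7 was thus among the closest genes of Ccl2, its neighbour on chromosome 11, and the ratio of Ccl7 to Ccl2 was 0.619 ± 0.0167 in oligomycin A cells and 0.526 ± 0.0226 in vehicle cells (SD, n = 3 each).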

How the data were processed

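Libraries of poly(A)-selected RNA were made and sequenced on an Illumina instrument, per the labels' protocols. Values are FPKM as deposited, in 4 tables. HTSeq and mm10 appear in the submitters' processing notes without a role, and which tool computed FPKM is not given in the sources used. Groups came from sample titles. Of low values, 23.3% to 46.5% came within 0.1 of a whole fragment, so no count test was run and depths are rough. The test was limma 3.58.1 (R 4.3.3, trended variance prior) on log2(FPKM + 1), within a table, on genes averaging at least 1 FPKM. The 4 oligomycin A groups shared 1 fit. Fold changes on this scale understate low genes. Genes were called at a Benjamini-Hochberg adjusted p below 0.05; Tnf was tested by exact permutation. The script was tested on simulated data. Positions and 3′ UTRs came from GENCODE M21 (GRCm38), promoters from RefSeq. The members and lists were chosen with earlier results of these data known. Named genes were all members, called genes of each list (at most 6 per list and comparison), the 3 highest in MLO-Y4 cells per list, and the 3 most like each called member; some of these are not reported here. Pseudocounts, filters, scalings, priors, a replicate block and omitted libraries were tried as alternatives.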

Additional observations from a re-analysis of the deposited data

How the results depend on the processing

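Results for counts of called members were recomputed under each alternative. For oligomycin A against vehicle, 2 members were called, 4 when the filter was raised to 5 FPKM, 5 with median-of-ratios scaling, 4 when rescaled without repeat-like, ribosomal-like and 7S genes (chosen after seeing the data) and 4 when only the 6 libraries compared were fitted. For vehicle supernatant against vehicle, 6 were called, 3 with no filter on low values, and 2 to 6 when single libraries were left out, with 2 without vehicle supernatant replicate 1 and 3 without vehicle replicate 2. The cause was not tested. The counts of the other comparisons stayed at 0 in every alternative run, and no called value changed sign. Il6 and Cxcl1 were called with oligomycin A in 17 of 17 alternatives, and Il6 and Il11 in the vehicle pair in 17 of 17. The adjusted p of the Il6 difference of responses ranged over 0.0695 to 0.268. Lif and Cxcl12 had no value in young bone with the filter at 5.

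Same-numbered libraries had correlations of deviations from the group means of -0.23 to 0.06, and libraries with different numbers had -0.22 to 0.22. No pairing by number was seen, but with 3 libraries per group these correlations cannot exclude it. With a replicate block, 4 members were called for oligomycin A (Il6, Cxcl1, Ccl2 and Ccl7), and no other count of called members moved by over 1.5 times. At the rough depth Tnf and Cxcl12 rest on few or no fragments in MLO-Y4 cells. In young bone the rough depth was 1.62 M to 6.45 M fragments and the SEs of the tested members were 0.63 or more; the part of depth and of the repeat-like share in those SEs was not tested.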
